A study of Homo sapiens with 8 samples.

Results

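The genes of voltage-gated sodium and calcium channels are described here in D283-OMO cells before and after induction of OMOMYC, a dominant-negative form of MYC. Members were all protein-coding genes whose GENCODE symbol is that of a sodium channel alpha subunit (SCN followed by a number and A), a sodium channel beta subunit (SCN followed by a number and B), a calcium channel alpha1 subunit (CACNA1A to CACNA1I and CACNA1S), an alpha2delta subunit (CACNA2D1 to CACNA2D4), a calcium channel beta subunit (CACNB1 to CACNB4) or a gamma subunit (CACNG1 to CACNG8). This rule took 40 of the 60668 genes in the count files, 14 for sodium and 26 for calcium channels. The rule itself uses no measured values, but it was chosen with earlier results of these data known.

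D283 MED is a long-established medulloblastoma line, and D283-OMO is that line after lentiviral transduction with Flag-tagged OMOMYC under a doxycycline (DOX)-inducible promoter and hygromycin selection, with no cloning step described. PolyA+ RNA was sequenced from 4 untreated libraries (OMO) and 4 libraries of the same cells given DOX at 0.25 µg/mL for 72 h (OMO+DOX), so both groups carry the transgene and only OMO+DOX received the drug. DOX and OMOMYC therefore cannot be told apart in this comparison, since no library of D283 MED cells without the transgene was analysed here. The values come from bulk RNA, in which fewer cells of a kind and less RNA per cell cannot be told apart, and they hold no protein or current.

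A voltage-gated sodium or calcium channel is built around a large pore-forming subunit (alpha or alpha1) with built-in voltage sensors, which opens when the membrane depolarises. Sodium channels carry the rising phase of the action potential, and their beta subunits change gating and take part in cell adhesion. Calcium channels turn depolarisation into calcium entry, which drives transmitter release, contraction and gene expression. Their alpha1 subunits fall into the Cav1 (L-type), Cav2 (P/Q-, N- and R-type) and Cav3 (T-type, low-voltage-activated) families, while alpha2delta and beta subunits bring the pore to the membrane. Most genes of the gamma family encode TARPs, proteins that traffic and tune AMPA-type glutamate receptors rather than calcium channels, and in the cerebellum CACNG2 (stargazin) is the best known of them.

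The libraries held 38390696 to 54020506 RSEM expected counts, which are reads shared out over the annotated genes. Levels are given in CPM, counts scaled to the TMM-adjusted size of each library, on which 3 counts correspond to 0.0581 to 0.0748 CPM. OMO replicate 3 stood apart: its chi-square per degree of freedom against the other OMO libraries was 27.0 to 39.8, compared with 3.43 to 6.70 among those, and it held the lowest OMO level of 14 of the 23 members that could be tested. MYC RNA was 939 ± 75.6 CPM in OMO and 1123 ± 56.8 CPM in OMO+DOX (SD, n = 4 each), but OMOMYC derives from MYC and reads of the transgene cannot be told apart from it. The MYC targets CAD and NCL fell by 0.48 and 0.44 on the log2 scale (adjusted p = 1.33e-06 and 1.23e-06, edgeR's quasi-likelihood F test, Benjamini-Hochberg adjusted across 15222 genes, the test used throughout).

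The cell label was checked against marker lists. Of 11 markers of Group 3 and Group 4 medulloblastoma, OTX2 stood at 1029 to 1071 CPM in OMO and 508 to 512 CPM in OMO+DOX. BARHL1 and LMX1A were at or below the level of 3 counts in every library and KCNA1 was listed at 0. Of the 7 tested, 6 fell and only MYC rose. Summed over the list the level was 3178 to 3264 CPM in OMO and 1760 to 1902 CPM in OMO+DOX. This sum includes MYC, whose reads cannot be told apart from those of the transgene. Since MYC rose, the other markers together fell by more than the sum shows. The 7 neuron markers summed to 202.5 to 232.2 CPM in OMO and 289.6 to 316.2 CPM in OMO+DOX, mostly from SYT1. SYT1 alone was 191.5 ± 11.8 CPM in OMO and 272.3 ± 10.4 CPM in OMO+DOX. Of the 6 tested, 3 rose, 2 fell and 1 was not called. MAP2, which encodes a dendritic microtubule protein, rose from 1.95 ± 0.322 to 14.7 ± 0.924 CPM, while DCX, a marker of migrating young neurons, fell from 16.8 ± 2.14 to 4.31 ± 0.372 CPM. Of the markers of other cells, those of blood and microglia summed to 0.634 to 0.810 CPM in OMO and 1.11 to 1.44 CPM in OMO+DOX, with none of 4 tested. Muscle markers summed to 7.06 to 9.58 CPM in OMO and 3.99 to 4.56 CPM in OMO+DOX. Most of that fall was MYOG, the only 1 of the 7 tested, at 6.185 ± 0.746 and 2.281 ± 0.300 CPM. Fibroblast markers summed to 22.3 to 23.8 and 20.9 to 24.9 CPM, nearly all from COL1A1. Endothelial markers summed to 2.91 to 3.67 and 2.59 to 3.50 CPM, a sum that hides opposite changes. CDH5 was listed at 0 in OMO and stood at 1.85 ± 0.237 CPM in OMO+DOX. It passed the filter only through the OMO+DOX libraries. VWF fell from 3.26 ± 0.332 to 1.24 ± 0.184 CPM. Astrocyte markers summed to 47.8 to 51.8 and 15.5 to 18.2 CPM, nearly all from SLC1A3. Of the 4 oligodendrocyte markers MOG and MAG were listed at 0. The rest of that list and its sum are not reported here, so the list cannot be taken as absent or unchanged. The part of these shifts in the channel results was not tested.

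Of the 40 members, 23 (57.5%) exceeded 1 CPM in 4 or more libraries and were tested, whereas 65.2% of all protein-coding genes passed. With differential expression set at FDR below 0.001 together with a log2FC beyond 2 in either direction, 4 members were higher with DOX (SCN3A, CACNG4, CACNA1C and CACNA1I) and 1 was lower (CACNG2). These are 17.4% and 4.35% of the members tested, where 4.38% and 2.75% of all genes tested were called higher and lower. SCN3A, CACNG4 and CACNA1C passed the filter only through the OMO+DOX libraries, so their call as higher is partly fixed by the filter, and only CACNA1I of the 4 passed in both groups. Without a fold change threshold, at an adjusted p below 0.05, 10 members (43.5%) were higher and 8 (34.8%) were lower, close to the 38.5% and 38.1% of all genes tested. The groups did not overlap for 18 of the 23 (78.3%), beside 71.7% of all genes tested. The median absolute log2FC was 0.89 for the members tested and 0.43 for all genes tested, while the signed medians were 0.12 and 0.01.

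**Figure D1:**
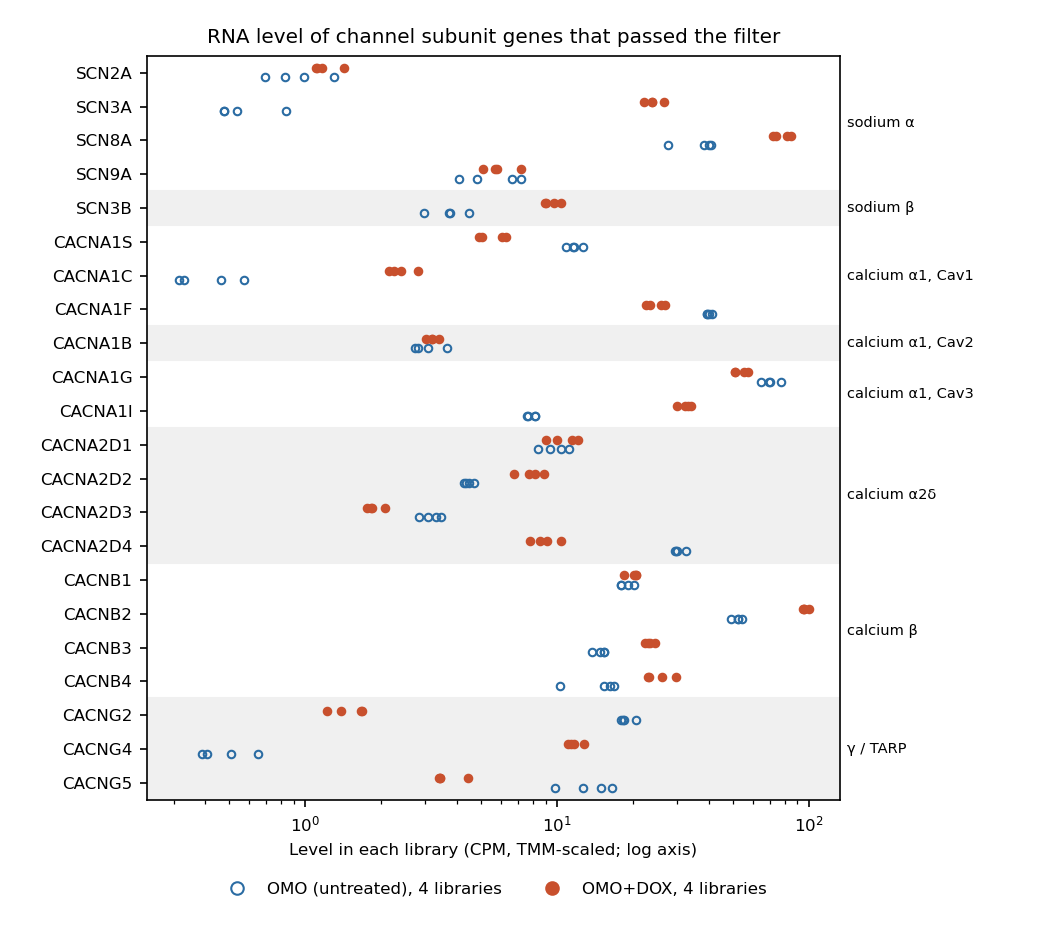
Level of 22 of the 23 tested members in every library, in CPM with TMM-scaled library sizes on a log axis, with OMO libraries as open blue circles and OMO+DOX libraries as filled orange circles; grey bands separate the subunit classes. SCN3A, CACNA1C, CACNA1I and CACNG4 lie clear to the right in OMO+DOX, and CACNG2 lies clear to the left.

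Promoter sequence was at hand for 26 of the members, as 40 windows from 250 bases before to 50 bases after a RefSeq transcription start on GRCh38.p14; SCN3A, CACNG2 and CACNG4 were not among them. MYC and MAX bind the E-box, whose core form CACGTG reads the same on both strands. It was found in 2 of the 40 member windows (5.0%) and in 7.26% of all 35116 windows of the table. Those 2 belong to CACNA1I, which was differentially expressed, and CACNA1B, whose level did not pass the test, and they are shown with the window of CACNA1C, differentially expressed without this motif. Printed are the 250 bases before each start, 5′ to 3′ on the plus strand, on which all 3 genes lie, with the E-box in capitals:
CACNA1I, chr22:39570503-39570752: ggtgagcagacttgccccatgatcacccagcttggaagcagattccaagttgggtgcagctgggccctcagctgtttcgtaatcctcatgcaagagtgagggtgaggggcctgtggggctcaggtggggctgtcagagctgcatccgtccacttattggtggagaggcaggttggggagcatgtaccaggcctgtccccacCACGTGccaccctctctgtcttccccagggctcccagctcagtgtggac
CACNA1B, chr9:137877532-137877781: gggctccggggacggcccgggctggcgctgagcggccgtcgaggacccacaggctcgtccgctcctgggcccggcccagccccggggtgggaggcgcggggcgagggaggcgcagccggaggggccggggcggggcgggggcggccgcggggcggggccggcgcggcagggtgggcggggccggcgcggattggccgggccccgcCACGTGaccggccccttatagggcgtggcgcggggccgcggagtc
CACNA1C, chr12:2052737-2052986: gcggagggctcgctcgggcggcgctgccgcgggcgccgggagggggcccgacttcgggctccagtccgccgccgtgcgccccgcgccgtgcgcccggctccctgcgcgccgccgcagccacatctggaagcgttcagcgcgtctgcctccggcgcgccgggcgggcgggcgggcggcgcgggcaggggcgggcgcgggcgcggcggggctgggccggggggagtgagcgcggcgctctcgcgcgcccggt
The E-box began 49 bases before the start in CACNA1I and 45 bases before it in CACNA1B. By GENCODE 29, the CACNA1I stretch lies outside any gene, and the CACNA1B stretch lies within AL772363.1, which runs on the opposite strand. The CACNA1C stretch lies within that gene, downstream of its first annotated start and outside its exons. A match is a run of letters only, and binding of MYC or OMOMYC was not measured here.

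Sodium channel alpha subunits held the largest single rise among the members tested. SCN3A (ENSG00000153253.18, chr2:165087522-165204067, minus strand) encodes Nav1.3, the alpha subunit typical of the embryonic brain. Its level was 0.534, 0.842, 0.477 and 0.477 CPM in OMO replicates 1 to 4 and 26.7, 23.7, 23.9 and 22.1 CPM in OMO+DOX replicates 1 to 4. Every OMO+DOX library thus lay far above every OMO library, with OMO replicate 2 the highest of its group. The mean rose 41.3-fold, from 0.582 ± 0.175 to 24.1 ± 1.91 CPM (log2FC 5.37 ± 0.13, SE, adjusted p = 1.66e-11). SCN3A counts could mix with those of near copies only to a small extent, since 1.74% of its 100-base windows occur in another gene, mostly SCN9A. An antisense gene on the opposite strand, AC019197.1, shares 975 exonic bases with SCN3A and stood at 0.0107 ± 0.0124 CPM in OMO and 0.0405 ± 0.0140 CPM in OMO+DOX.

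SCN8A, which encodes Nav1.6 of axon initial segments and nodes of Ranvier, stood at 40.9, 38.3, 27.7 and 40.2 CPM in OMO and 84.7, 81.7, 74.3 and 71.7 CPM in OMO+DOX. All OMO+DOX libraries were above all OMO libraries, and OMO replicate 3 was the lowest. It rose by a log2FC of 1.09 ± 0.11 (adjusted p = 2.52e-06), and by 0.97 to 1.14 with any 1 library left out.

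SCN2A (Nav1.2, of excitatory neurons) and SCN9A (Nav1.7, of pain-sensing neurons) did not pass the test. SCN2A was 0.954 ± 0.264 CPM in OMO and 1.202 ± 0.151 CPM in OMO+DOX (log2FC 0.34 ± 0.19, adjusted p = 0.129), and without OMO replicate 1 its log2FC was 0.52 with an adjusted p of 0.0168. SCN9A was 5.68 ± 1.47 and 5.94 ± 0.894 CPM (log2FC 0.06, adjusted p = 0.75). Another 5 alpha genes were below the filter. SCN7A, whose product senses sodium rather than voltage, had 24 to 37 counts in OMO and 28 to 35 in OMO+DOX libraries, SCN11A had 6 to 10 and 4 to 9, and SCN1A had 2 to 4 and 3 to 10. SCN4A, the skeletal muscle channel, had at most 3 counts in any library, and SCN10A had none in all 8, which allows up to 0.0748 CPM. No difference was detectable for these 5 at this depth.

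Levels can be compared between genes only per length, here as CPM per kb of the union of annotated exons. SCN3A stood at 0.0592 CPM per kb in OMO and 2.45 CPM per kb in OMO+DOX, SCN8A at 2.46 and 5.23 CPM per kb, and SCN9A at 0.413 and 0.432 CPM per kb. SCN3A was thus far below SCN9A in OMO and far above it in OMO+DOX, while SCN8A was the highest of these 3 genes in both groups.

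Of the sodium channel beta subunits, which modulate gating and bind other cells, SCN3B alone passed the filter. It stood at 4.45, 3.74, 2.97 and 3.77 CPM in OMO and 9.68, 10.3, 9.01 and 8.96 CPM in OMO+DOX. The groups did not overlap, and the log2FC was 1.35 ± 0.11 (adjusted p = 4.33e-07). SCN4B, linked to the resurgent current of Purkinje cells, had 1, 1, 2 and 0 counts in OMO and 18, 12, 20 and 11 counts in OMO+DOX. It is therefore at the edge of detection in OMO, and its depth-scaled ratio was 15.8 with a 95% counting interval of 5.87 to 59.9. In a fit with no filter on low counts SCN4B passed, with an adjusted p of 6.18e-07, and its levels in CPM did not overlap. SCN2B had 2 to 5 and 1 to 4 counts and no detectable difference.

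**Figure D2:**
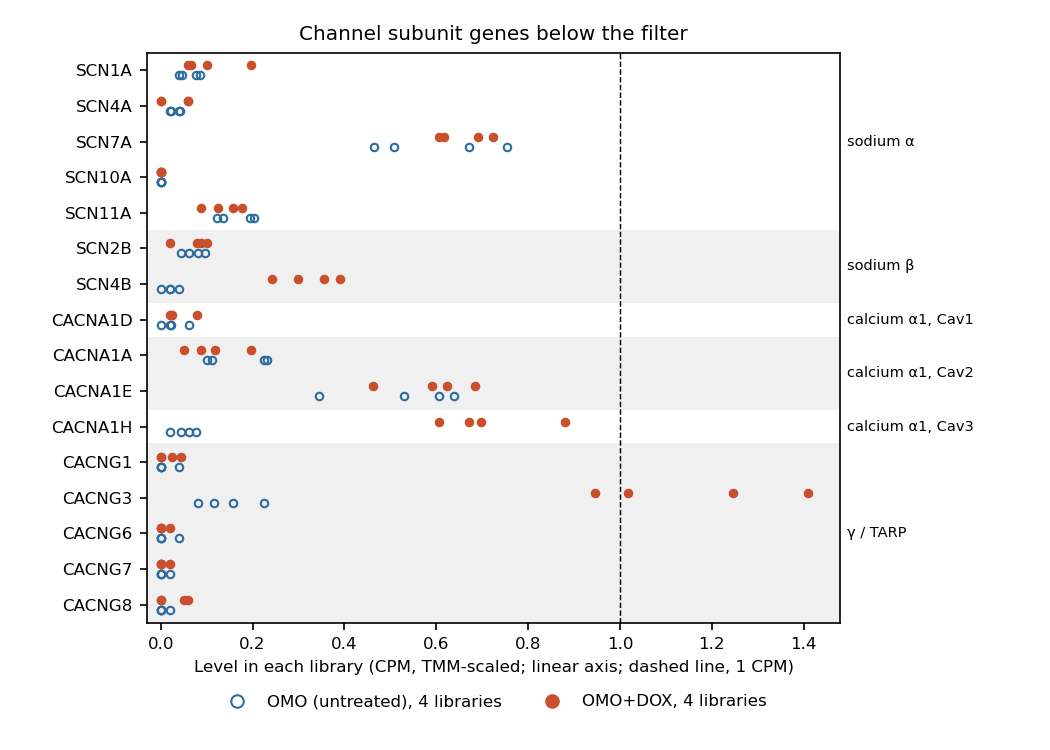
Level in every library of 16 of the 17 members below the filter, in CPM on a linear axis, with OMO as open blue and OMO+DOX as filled orange circles and a dashed line at 1 CPM. SCN4B, CACNA1H and CACNG3 separate by group, and the other 13 overlap.

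Among Cav1 (L-type) alpha1 genes, CACNA1C rose while CACNA1F and CACNA1S fell. CACNA1C (ENSG00000151067.22, chr12:1970786-2697950, plus strand) encodes Cav1.2, the L-type channel of heart, smooth muscle and most neurons. It stood at 0.571, 0.329, 0.463 and 0.314 CPM in OMO and 2.25, 2.39, 2.80 and 2.16 CPM in OMO+DOX. The groups did not overlap, the mean was 5.67-fold higher with DOX, and the log2FC was 2.50 ± 0.18 (adjusted p = 1.48e-07). Its antisense partner CACNA1C-AS1, which shares 564 exonic bases, stood at 0.0375 ± 0.0122 CPM in OMO and 0.0104 ± 0.0121 CPM in OMO+DOX. CACNA1F, which encodes Cav1.4 of photoreceptor synapses, stood at 40.3, 41.2, 39.2 and 39.3 CPM and then at 26.8, 23.4, 25.8 and 22.6 CPM. All OMO+DOX libraries were below all OMO libraries, a fall of 0.70 ± 0.06 on the log2 scale (adjusted p = 4.85e-07). CACNA1S, which encodes Cav1.1, the voltage sensor of skeletal muscle contraction, fell from 11.7 ± 0.760 to 5.57 ± 0.702 CPM (log2FC -1.07 ± 0.09, adjusted p = 6.9e-07), again without overlap. CACNA1D, the other neuronal L-type gene, had 0 to 3 counts in OMO and 1 to 4 in OMO+DOX libraries.

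The rise of CACNA1C was small in the class as a whole. Per kb, Cav1 genes summed to 7.69 ± 0.0887 CPM in OMO and 4.59 ± 0.192 CPM in OMO+DOX, of which CACNA1F held 75.1 ± 1.55% and 77.5 ± 3.10%. CACNA1C held 0.286 ± 0.0832% and 2.74 ± 0.300%. IMPG2, a photoreceptor matrix gene that stands on the medulloblastoma list, fell from 472.7 ± 65.9 to 58.7 ± 3.75 CPM (log2FC -3.01). It was not named in advance, and 6 of the 7 tested genes of that list fell. A link between its fall and that of CACNA1F was not tested.

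The Cav2 genes, whose channels trigger transmitter release, showed no called change. CACNA1B (Cav2.2, N-type) stood at 3.06 ± 0.417 CPM in OMO and 3.19 ± 0.154 CPM in OMO+DOX (log2FC 0.06, adjusted p = 0.634) and held 90.4 ± 2.26% and 90.2 ± 1.75% of Cav2 RNA per kb. CACNA1E (R-type) had 17 to 33 counts in OMO and 21 to 35 in OMO+DOX, and CACNA1A (P/Q-type, the main type of Purkinje cells) had 5 to 12 and 2 to 10. No difference was detectable for either.

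Of the Cav3 (T-type) genes, whose channels open near the resting potential and favour burst firing, CACNA1I rose and CACNA1G fell. CACNA1I (ENSG00000100346.18, chr22:39570753-39689737, plus strand) encodes Cav3.3. It stood at 8.20, 7.68, 7.58 and 8.20 CPM in OMO and 34.0, 33.1, 32.1 and 30.0 CPM in OMO+DOX. The groups were far apart and each was narrow, the mean was 4.08-fold higher, and the log2FC was 2.03 ± 0.06 (adjusted p = 4.42e-11). This is just past the threshold of 2, and with any 1 library left out it was 2.0 to 2.06 and still called. CACNA1G (Cav3.1, abundant in thalamus and cerebellum) stood at 77.4, 64.2, 69.1 and 69.7 CPM and then at 57.1, 51.0, 50.7 and 55.1 CPM. It fell without overlap, by 0.39 ± 0.06 on the log2 scale (adjusted p = 0.000147). CACNA1H (Cav3.2) was below the filter, with 1, 4, 3 and 2 counts in OMO and 34, 28, 31 and 40 counts in OMO+DOX. Its depth-scaled ratio was 13.8 (95% counting interval 7.27 to 29.5), and in the fit with no filter its adjusted p was 5.35e-10.

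The sum of the Cav3 genes was 7.96 ± 0.582 CPM per kb in OMO and 8.58 ± 0.367 CPM per kb in OMO+DOX, while its make-up shifted. CACNA1G held 90.7 ± 0.509% and 64.2 ± 1.69%, CACNA1I 9.24 ± 0.480% and 34.9 ± 1.81%, and CACNA1H 0.0765 ± 0.0403% and 0.967 ± 0.161%. CACNA1G thus led the class in all 8 libraries.

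The alpha2delta genes, whose products raise channel density at the membrane, moved in opposite directions. CACNA2D4, known from photoreceptors, stood at 29.6, 32.4, 29.3 and 30.0 CPM in OMO and 10.3, 7.80, 9.11 and 8.52 CPM in OMO+DOX. It fell by 1.76 ± 0.08 on the log2 scale without overlap (adjusted p = 1.95e-09), short of the threshold for differential expression. CACNA2D3 fell as well, from 3.16 ± 0.272 to 1.87 ± 0.135 CPM (log2FC -0.76 ± 0.10, adjusted p = 3.94e-05). CACNA2D2, whose loss in mice causes ataxia, rose from 4.44 ± 0.192 to 7.88 ± 0.893 CPM (log2FC 0.83 ± 0.09, adjusted p = 5.92e-06). CYB561D2 shares 606 exonic bases with it on the opposite strand and stood at 7.39 ± 0.528 CPM in OMO and 8.01 ± 0.867 CPM in OMO+DOX, so without strand their reads could mix. CACNA2D1, the gabapentin receptor, was 9.83 ± 1.19 and 10.7 ± 1.39 CPM and was not called (log2FC 0.12, adjusted p = 0.346). In the class sum, which was 6.44 ± 0.269 CPM per kb in OMO and 4.00 ± 0.166 CPM per kb in OMO+DOX, CACNA2D4 held 61.7 ± 2.04% and 29.2 ± 2.34%. CACNA2D2 held 10.9 ± 0.308% and 31.2 ± 3.78%, and CACNA2D1 16.9 ± 1.74% and 29.6 ± 3.83%, so that these 3 genes had near-equal shares after DOX.

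Of the 4 calcium channel beta genes, whose products bind the alpha1 subunit inside the cell and keep it from degradation, 3 rose and none fell. CACNB2 stood at 52.3, 54.1, 49.0 and 52.3 CPM in OMO and 95.3, 99.6, 94.7 and 96.0 CPM in OMO+DOX. The groups were well apart, and the log2FC was 0.89 ± 0.04 (adjusted p = 5.45e-09). CACNB3 rose from 14.8 ± 0.763 to 23.3 ± 0.921 CPM (log2FC 0.65 ± 0.05, adjusted p = 4.83e-07), and CACNB4, which is mutated in the lethargic mouse with ataxia, from 14.7 ± 3.01 to 25.5 ± 3.09 CPM (log2FC 0.80 ± 0.14, adjusted p = 0.000238). For CACNB4 the annotation is less clear than for the others, since 5.69% of its 100-base windows also lie in AC068547.1, a gene model on the same strand at 0.454 ± 0.810 CPM in OMO and 0.624 ± 0.803 CPM in OMO+DOX. CACNB1, the skeletal muscle partner of Cav1.1, was 18.8 ± 1.07 and 19.95 ± 0.995 CPM and not called (log2FC 0.09, adjusted p = 0.185), but with library size as the only scaling it was called higher (log2FC 0.21, adjusted p = 0.00736). The class summed to 10.9 ± 0.322 CPM per kb in OMO and 17.5 ± 0.0916 CPM per kb in OMO+DOX, and CACNB2 held 53.1 ± 1.02% and 61.4 ± 1.10%. With the longest coding transcript as length the sums were 21.1 and 33.4 CPM per kb, and CACNB2 held 41.9% and 49.1%.

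The gamma genes showed the widest spread of changes. CACNG2 (ENSG00000166862.6, chr22:36563921-36703558, minus strand) encodes stargazin, the TARP that brings AMPA receptors to cerebellar granule cell synapses. It stood at 20.5, 18.3, 18.0 and 18.5 CPM in OMO and 1.38, 1.22, 1.66 and 1.67 CPM in OMO+DOX. No libraries overlapped, the mean was 12.6-fold lower with DOX, and the log2FC was -3.65 ± 0.10 (adjusted p = 2.79e-11). CACNG4 (ENSG00000075461.6, chr17:66964910-67033398, plus strand) encodes another TARP, gamma-4. It stood at 0.388, 0.406, 0.508 and 0.650 CPM in OMO and 12.8, 11.0, 11.7 and 11.4 CPM in OMO+DOX. Again no libraries overlapped, the mean was 24.1-fold higher, and the log2FC was 4.59 ± 0.13 (adjusted p = 4.42e-11). AC005544.2, an antisense gene that shares 229 exonic bases with CACNG4, was listed at 0 in all libraries.

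CACNG5, a TARP with weaker effects on trafficking, stood at 12.7, 16.6, 9.78 and 15.0 CPM in OMO and 4.42, 3.44, 3.40 and 3.41 CPM in OMO+DOX. It fell by 1.88 ± 0.16 on the log2 scale without overlap (adjusted p = 5.65e-07). Without OMO replicate 3, the lowest of its group, its log2FC was -2.01 and it passed as differentially expressed. CACNG3 was above 1 CPM in 3 libraries only, all OMO+DOX, and so was not tested. It had 11, 6, 4 and 7 counts in OMO and 48, 50, 52 and 64 counts in OMO+DOX, a ratio of 7.93 (95% counting interval 5.33 to 12.2), and its adjusted p in the fit with no filter was 3.11e-10. The muscle-type genes CACNG1 and CACNG6 and the TARP genes CACNG7 and CACNG8 had at most 3 counts in any library.

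Gamma RNA as a whole was lower with DOX, at 16.4 ± 2.29 CPM per kb in OMO and 7.12 ± 0.523 CPM per kb in OMO+DOX. Its make-up changed as well. CACNG5 held 62.5 ± 5.41% in OMO and 39.2 ± 2.52% in OMO+DOX, CACNG2 36.2 ± 5.36% and 6.49 ± 1.10%, and CACNG4 0.899 ± 0.258% and 48.7 ± 0.919%. On this length, the exon union, CACNG5 led in all OMO libraries and CACNG4 in all OMO+DOX libraries. Per kb of the longest coding transcript, CACNG5 and CACNG2 were closer in OMO, at means of 10.3 and 7.89 CPM per kb.

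**Figure D3:**
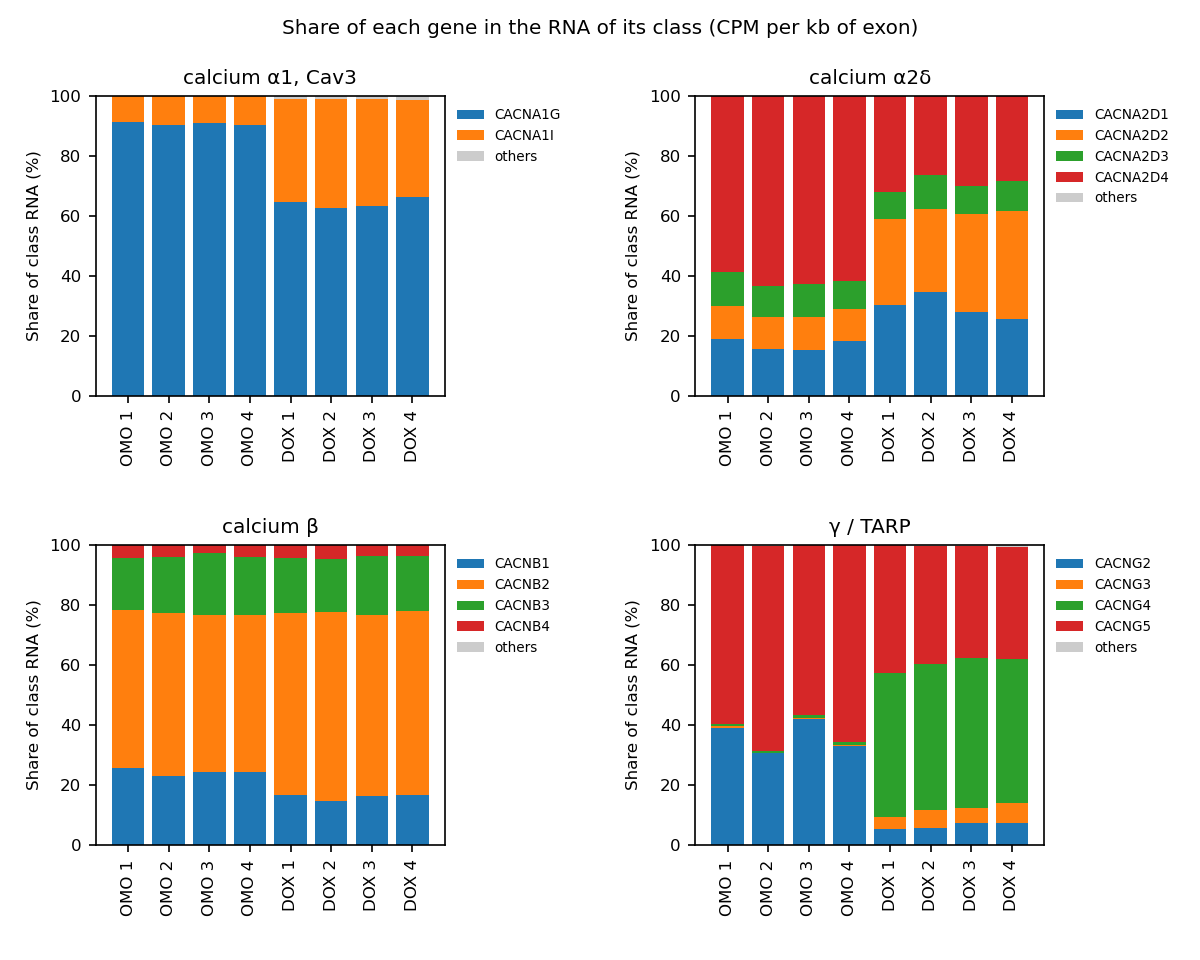
Share of each gene in the summed RNA of its class (%, from CPM per kb of exon) in each of the 8 libraries, for Cav3, alpha2delta, calcium beta and gamma genes; genes under 3% in every library are pooled as others. CACNA1I, CACNA2D2, CACNB2 and CACNG4 take larger shares in all 4 OMO+DOX bars than in any OMO bar.

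**Figure D4:**
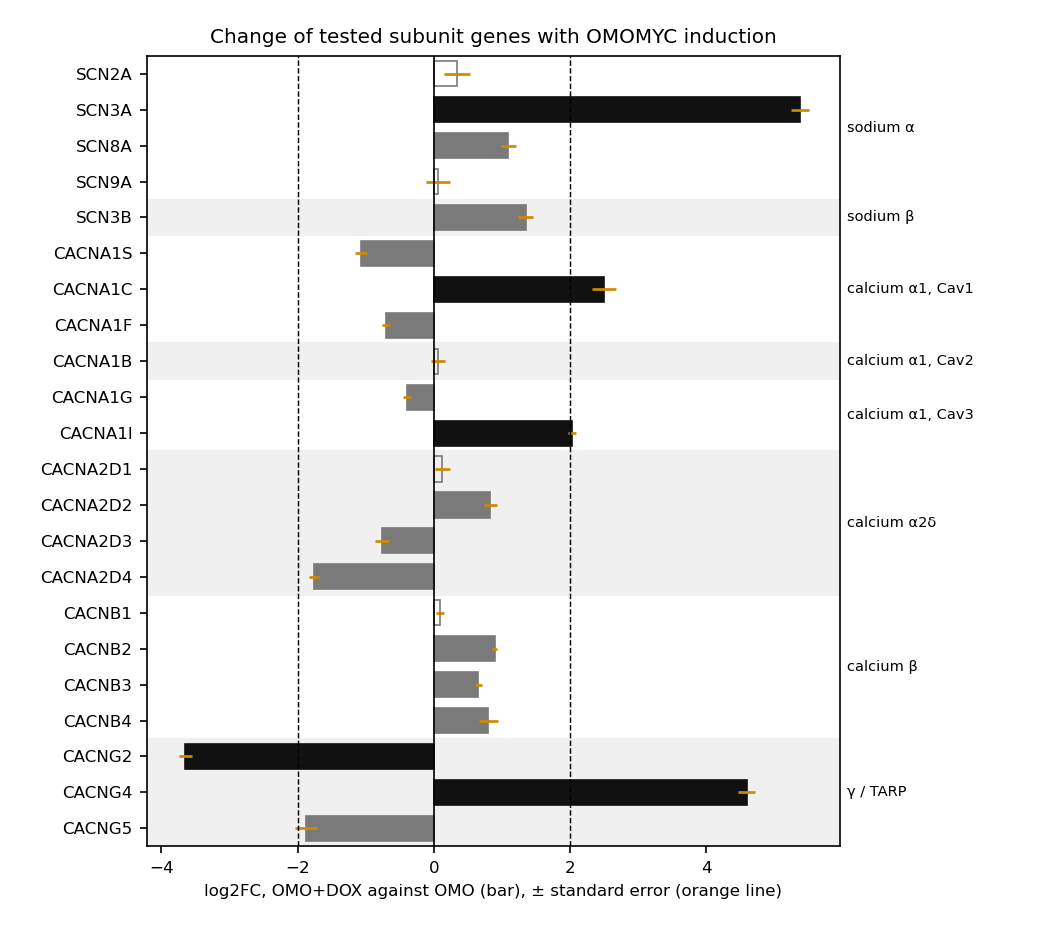
log2FC of OMO+DOX against OMO for 22 of the 23 tested members (bars) with its standard error (orange lines); black bars are differentially expressed, grey bars have an adjusted p below 0.05, open bars do not, and dashed lines mark -2 and 2. Members of one class point both ways in Cav1, Cav3, alpha2delta and gamma genes, whereas no calcium beta gene points down.

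The order of the members by level per kb of exon union differed between the groups. In OMO it was led by CACNG5 at 10.3 CPM per kb, followed by CACNA1G at 7.22, CACNG2 at 5.83, CACNB2 at 5.80 and CACNA1F at 5.77 CPM per kb, of which the last 3 are within their spread of each other. In OMO+DOX it was led by CACNB2 at 10.8 CPM per kb, followed by CACNA1G at 5.51, SCN8A at 5.23, CACNA1F at 3.56 and CACNG4 at 3.47 CPM per kb. SCN3A came to 2.45 CPM per kb after DOX, near CACNA1I at 2.99 CPM per kb. The order depends on the length used. Per kb of the longest coding transcript, CACNG5 at 10.3 and CACNB2 at 16.4 CPM per kb still led in OMO and OMO+DOX, but CACNB2 at 8.84 passed CACNA1G at 8.62 CPM per kb in OMO. In OMO+DOX, CACNB3 came next to CACNB2 at 8.65 CPM per kb, SCN8A at 6.76 passed CACNA1G at 6.57, and CACNB1 at 5.33 passed CACNA1F at 4.06 CPM per kb.

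Several members are neighbours in the genome, and some neighbours moved apart. On chromosome 2, the SCN3A and SCN2A gene bodies overlap by 9075 bp on opposite strands, yet SCN3A rose 41.3-fold while SCN2A was not called. SCN1A, SCN9A and SCN7A follow SCN2A in the same region, with gaps of 592.3, 46.0 and 27.6 kb, where SCN9A was not called and SCN1A and SCN7A were below the filter. On chromosome 17, CACNG5, CACNG4 and CACNG1 lie in a row on the plus strand with gaps of 79.4 and 11.2 kb, where CACNG5 fell, CACNG4 rose and CACNG1 stayed at or below 2 counts. On chromosome 12, CACNA2D4 and CACNA1C lie on opposite strands 51.9 kb apart, and the former fell while the latter rose.

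Genes that work with the channels were taken from 7 lists, 65 genes in all, of which 52 were tested. At an adjusted p below 0.05, 19 were higher, 25 were lower and 8 were not called, and 7 were differentially expressed upward and 1 downward. These are 36.5% and 48.1% of the partner genes tested at an adjusted p below 0.05, and 13.5% and 1.92% for differential expression, against the shares of all genes given above. SCNN1A and RIMS1, 2 of the 7, passed the filter only through the OMO+DOX libraries, so their call as higher is partly fixed by the filter. Of 9 tested sodium channel partners, 2 rose (FGF12 and ANK2) and 6 fell, none past a log2FC of 2. FGF13, a cytosolic fibroblast growth factor that binds the sodium channel tail, fell from 30.3 ± 0.915 to 8.23 ± 0.592 CPM (log2FC -1.88 ± 0.06, adjusted p = 1.07e-10). ANK3, which anchors the channels at the axon initial segment, was 45.7 ± 4.00 and 43.2 ± 3.01 CPM and not called. In the sodium leak channel complex, 3 of 4 tested genes fell and 1 rose, and the pore gene NALCN was below the filter. NALCN had 4 counts summed over OMO and 44 over OMO+DOX, a depth-scaled ratio of 11.4 (95% counting interval 4.16 to 43.7), and its groups did not overlap.

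Of 5 tested epithelial and acid-sensing sodium channel genes, 3 rose and 2 fell, and SCNN1A, the alpha subunit of the epithelial channel ENaC, was differentially expressed. It had 6 counts summed over the OMO libraries and 463 over the OMO+DOX libraries, a depth-scaled ratio of 80.1 (95% counting interval 36.5 to 219), and its adjusted p was 2.88e-08. ENaC is known as a channel of SCNN1A with SCNN1B and SCNN1G, and SCNN1B was listed at 0 in all libraries, while SCNN1G had 0 counts over OMO and 32 over OMO+DOX, with at least 0.1101 CPM in each OMO+DOX library.

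Calcium channel regulators numbered 13 tested, of which 5 rose, 6 fell and 2 were not called. STAC and STAC2, adaptors that slow the inactivation of L-type channels, rose from 1.002 ± 0.0783 to 8.28 ± 0.466 CPM and from 2.74 ± 0.221 to 15.8 ± 0.358 CPM (log2FC 3.04 ± 0.10 and 2.53 ± 0.07, adjusted p = 1.03e-10 and 4.91e-11). CACHD1, an alpha2delta-like protein, rose from 18.5 ± 1.79 to 104.6 ± 3.48 CPM (log2FC 2.50 ± 0.07, adjusted p = 3.28e-11). RIMS1, which ties calcium channels to the release site, rose from 0.323 ± 0.167 to 2.40 ± 0.381 CPM (log2FC 2.90 ± 0.27, adjusted p = 1.23e-06), whereas RIMS2 fell by 1.04 on the log2 scale. CABP1, a calcium sensor of L-type channels, fell from 13.1 ± 0.985 to 2.31 ± 0.263 CPM (log2FC -2.49 ± 0.10, adjusted p = 5.3e-10). CABP1, and the partner genes named here that were not differentially expressed, were chosen after their values were seen.

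Of 10 tested genes of calcium release and store-operated entry, 5 rose, 3 fell and 2 were not called. RYR2, the ryanodine receptor of heart and brain, rose from 1.66 ± 0.325 to 10.7 ± 1.38 CPM (log2FC 2.68 ± 0.14, adjusted p = 8.95e-09), and ITPR1, the inositol trisphosphate receptor of Purkinje cells, from 9.46 ± 1.33 to 44.7 ± 1.67 CPM (log2FC 2.24 ± 0.09, adjusted p = 6.38e-10). Of 3 tested channels with other voltage sensors 1 rose, 1 fell and 1 was not called. The RE1 silencing complex, which represses many neuronal channel genes outside neurons, had 2 of 8 genes higher, 4 lower and 2 not called, and REST itself rose from 65.4 ± 8.63 to 82.1 ± 5.68 CPM (log2FC 0.33 ± 0.09, adjusted p = 0.00591).

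**Figure D5:**
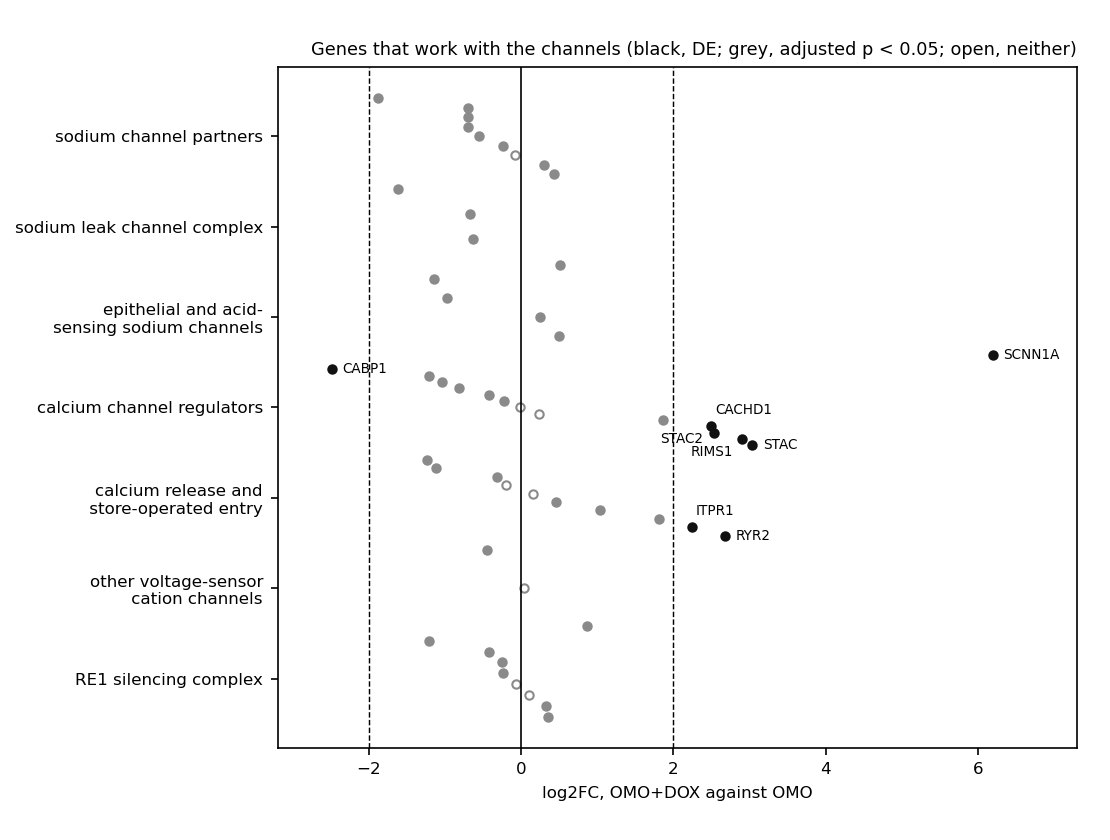
log2FC of OMO+DOX against OMO for the 52 tested genes of the 7 partner lists, 1 point a gene; black points are differentially expressed and named, grey points have an adjusted p below 0.05, open points do not, and dashed lines mark -2 and 2. The 7 black points on the right belong to 3 lists, and SCNN1A lies farthest out.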

How the data were processed

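PolyA+ RNA from 4 OMO and 4 OMO+DOX cultures of D283-OMO cells, which the methods call independent biological replicates, was sequenced from a stranded kit as paired reads of 100 nt. Reads were processed by the authors with Trim Galore, STAR on GRCh38 with GENCODE 32, and RSEM. The authors deposited the resulting expected counts per gene, 1 library per file, without normalization, and RSEM divides reads that match several genes. Whether counting used strand is not given in the sources used here. It is therefore not known whether reads of a gene and of an antisense partner were kept apart. The authors' tool versions are not given in the sources used here either.

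Groups were taken from the labels. Symbols, gene spans and exon lengths came from GENCODE 29 on GRCh38, in which 58561 of 60668 identifiers were found. Promoter windows came from RefSeq. Expected counts were rounded and genes above 1 CPM in at least 4 of 8 libraries were tested with edgeR 4.0.16 in R 4.3.3 (TMM, quasi-likelihood test, no covariates, Benjamini-Hochberg over all 15222 genes tested). The study's methods name edgeR's generalized linear models and the thresholds for differential expression, FDR below 0.001 with a log2FC beyond 2 in either direction. Standard errors are the absolute log2FC over the square root of the F statistic. Intervals of count ratios are exact (Clopper-Pearson, 95%) on counts summed over a group. Like the floor of 3 counts, they cover counting error only and leave out the variation between libraries. The reads also carry no molecular identifiers. Class sums and shares were computed in Python 3.11.15 with pandas 2.3.3 and have no test. Counts were whole numbers in all libraries for 30 of the 40 members.

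Alternatives covered the scaling (DESeq2 size factors, or none beyond library size), the test (DESeq2 1.42.0, or the likelihood ratio test in edgeR), other filters, a looser FDR of 0.01, a replicate block, the longest transcript as gene length, and each library left out in turn. Members are given, those tested by value and those differentially expressed in every library. Of each partner list the differentially expressed genes were named, up to the 4 with the largest absolute log2FC. The members and lists were chosen with earlier results of these data known. Reads and transcript-level values were not used here. Some members and a marker are counted but not reported here by name.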

Additional observations from a re-analysis of the deposited data

Results flagged for a closer look

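Within each group of 4 libraries, the highest or lowest library was set against the others with Dixon's test, for the 66 groups of member and condition with more than 3 counts in some library. A gap past the 95% critical value was found in 3 groups, and chance alone gives about 3.3. SCN3A was highest in OMO replicate 2, at 0.842 CPM from 43 counts, with the other OMO libraries at 0.477 to 0.534 CPM. CACNG5 was highest in OMO+DOX replicate 1, at 4.42 CPM from 224 counts, with the others at 3.40 to 3.44 CPM. CACNA1D was highest in OMO+DOX replicate 1, at 0.0789 CPM, which rests on 4 counts, with the others at 0.0196 to 0.0249 CPM. The calls for SCN3A and CACNG5 at an adjusted p below 0.05 were kept with those libraries left out.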

How the results depend on the processing

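Of 342 log2FC values of tested members under the alternatives, none changed sign where called or lost its call, and 2 gained one: SCN2A without OMO replicate 1 and CACNB1 with library size only, which shifts the median log2FC of all genes tested from 0.01 to 0.14. The count of members differentially expressed upward was 4, and depended on the filter. It was 1 when over 4 libraries had to pass 1 CPM, the filter named in the study's methods, where SCN3A, CACNG4 and CACNA1C are no longer tested. It was 7 with no filter, where CACNA1H, CACNG3 and SCN4B were added. The same filters gave 313 and 1328 genes upward and 249 and 769 downward over all genes, against 666 and 418. The count downward was 1, and 1 to 2 with a library left out, since CACNG5 passed without OMO replicate 3. With the replicate block the counts were 4 and 1, and 10 and 8 at an adjusted p below 0.05, and it changed no call. The deviations of same-numbered libraries from their group means correlated at -0.24 to 0.31. Those of differently numbered libraries spanned -0.38 (OMO replicate 3 with OMO+DOX replicate 2) to 0.47 (OMO replicate 3 with OMO+DOX replicate 4). Nothing in the labels ties equal numbers to a shared day or culture, so same-numbered libraries were not taken as pairs. Of 176 class sums and shares recomputed, 31 moved by more than the SD of the group, 24 of them with the longest transcript as gene length. Members with a few counts per library, such as SCN4A and CACNG6 to CACNG8, allow no comparison at this depth.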
